A study of Brachypodium distachyon with 6 samples.

Results

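A set of 197 genes of the wild grass *Brachypodium distachyon* was almost without reads in the bulk libraries labelled protoplasted while being well expressed in those labelled non-protoplasted. Members were all genes whose count never exceeded 3 in the 3 libraries labelled protoplasted and that reached at least 10 CPM (counts per 1000000, scaled for library composition with TMM, edgeR's trimmed mean of M values) in each of the 3 libraries labelled non-protoplasted. Genes that the study names elsewhere were left out, namely its named marker genes, its transcription factors with a regulatory network in stomatal clusters and the target genes of *BdMUTE* and *BdFAMA*. This removed 5 genes, all of them transcription factors of the network, from 202. The 197 members came from 36647 genes in the table, of which 23677 had enough counts to be tested and 11660 reached 10 CPM in each library labelled non-protoplasted. The members were thus chosen by their counts and CPM in both groups, and for that reason the difference between the groups is a description, and calls of the members by a test support nothing.

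RNA was taken from the developmental zone of young leaves, the growing base of the leaf, of 3 wk old soil-grown plants of the wild type Bd21-3. For the libraries labelled protoplasted, 10 leaf zones were digested with Macerozyme R10 and Cellulase Onozuka RS, and 5 undigested zones made up each library labelled non-protoplasted, with 3 biological replicates per group as the study's methods state. The groups were read from the titles and library names. A separate treatment entry contradicts them in each of the 6 samples. The names used below are those of the titles, and each direction rests on them. If the treatment entry is the right one, every direction below is exchanged. The members would then be genes nearly absent from the undigested leaf zones.

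Protoplasts are plant cells whose walls have been removed with wall-degrading enzymes. Release takes time and wounds the tissue, and it is known to change the expression of many genes, while cell types with thick or modified walls are often released poorly. In bulk RNA, fewer cells of a type and less RNA per cell cannot be told apart. The deposited table holds gene IDs of the Bd21-3 annotation without names or products, so that no function can be given for the members from the files. The RefSeq table at hand is of another inbred line, Bd21, and 0 member IDs matched it. For 16 members the study pairs the ID with a Bradi ID, the gene name system of Bd21, and 0 of these were found in the RefSeq table either.

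Total counts ran from 17482438 to 24621927 per library, with the smallest library being non-protoplasted replicate 1, and 3 counts equalled 0.106 to 0.205 CPM. With edgeR's quasi-likelihood test and Benjamini-Hochberg adjustment, 9074 of the 23677 genes tested (38.3%) had an adjusted p under 0.05 and were lower in the libraries labelled protoplasted, and 9164 (38.7%) were higher. Of the tissue markers, those of the epidermis (*BdPDF1*, *BdPDF2-like*, *BdHDG2-like*), the mesophyll (*BdLHCA6*, *BdSTOMAGEN-1*) and the xylem gene *BdXCP1-like* had mean levels of 22.5 to 202 CPM in the libraries labelled protoplasted and 6.84 to 68.3 CPM in the others. The shoot apex gene *BdKN1* had 0 counts in all 6 libraries and *BdFCP1* at most 9 counts. The stomatal lineage gene *BdSPCH1* had 45 to 53 counts in the libraries labelled protoplasted and at most 1 in the others. Of 15 markers, 13 had enough counts to be tested, and the fold change of 12 was toward higher levels in the libraries labelled protoplasted, opposite to the members, with the xylem gene *BdVND-like2* (0.880 against 1.65 CPM) the exception. Their part in the members' pattern was not tested.

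All 197 members were called lower by the same test and 0 higher. Among all genes at 10 CPM or more in each library labelled non-protoplasted, 49.6% were called lower, and nothing is read from the members' count because the rule used this contrast. In all members the 3 libraries labelled protoplasted lay below the 3 others, as in 40.1% of all genes tested, and the rule fixed this as well. Over all members together, the libraries labelled protoplasted held 131, 107 and 127 counts in replicates 1 to 3. The libraries labelled non-protoplasted held 337488, 366406 and 410517 counts. The members thus took 1.93%, 1.52% and 1.73% of all counts in the libraries labelled non-protoplasted and at most 0.000569% in the others. Per length, in TPM (transcripts per 1000000), they held 4.30%, 3.42% and 3.89% of the total in the libraries labelled non-protoplasted.

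The levels of the members were uneven. Their mean CPM in the libraries labelled non-protoplasted ran from 10.7 to 1443 with a median of 35.8, and the median of the other genes at 10 CPM or more was 40.1. On the TPM scale, which divides by length, the order was the other way, with a median of 63.2 TPM for the members and 23.8 TPM for the other genes at 10 CPM or more. A few members carried most of the reads. The single highest took 7.21% of the counts of all members in the libraries labelled non-protoplasted, the top 10 took 39.3% and the top 50 took 75.2%. In a ranking of all genes by mean TPM in the libraries labelled non-protoplasted, 8 members were among the top 100, 41 among the top 1000 and 144 among the top 5000.

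The member with the highest level, BdiBd21-3.3G0124200, stood at rank 13 of all genes by mean TPM. It had 26458, 24948 and 28998 counts in non-protoplasted replicates 1, 2 and 3, and 3 counts in every library labelled protoplasted. Its level was 1443 ± 331 CPM (SD, n = 3), or 3417 ± 612 TPM (SD, n = 3), in the libraries labelled non-protoplasted. It sat at the limit of 3 counts in every library labelled protoplasted, and the pooled count ratio was 12668, with a 95% counting interval from 6673 to 27705. This ratio sets the counts summed over the libraries of each group against each other, after division by the summed TMM-scaled library sizes. Intervals of this kind cover counting error only.

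BdiBd21-3.3G0414400 was second, at rank 29 of all genes by mean TPM. It had 19103, 20794 and 24777 counts in the libraries labelled non-protoplasted, and 0, 1 and 1 counts in the libraries labelled protoplasted. The level was 1145 ± 172 CPM (SD, n = 3), and the pooled count ratio was 45853 with an interval from 12693 to 378629. With 2 counts in the denominator, the interval spans more than an order of magnitude, and the ratios of these top members do not order them. Per length, the first was higher than the second in each library, at 4055, 2836 and 3361 TPM for BdiBd21-3.3G0124200 against 2728, 2202 and 2676 TPM for BdiBd21-3.3G0414400.

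**Figure D1:**
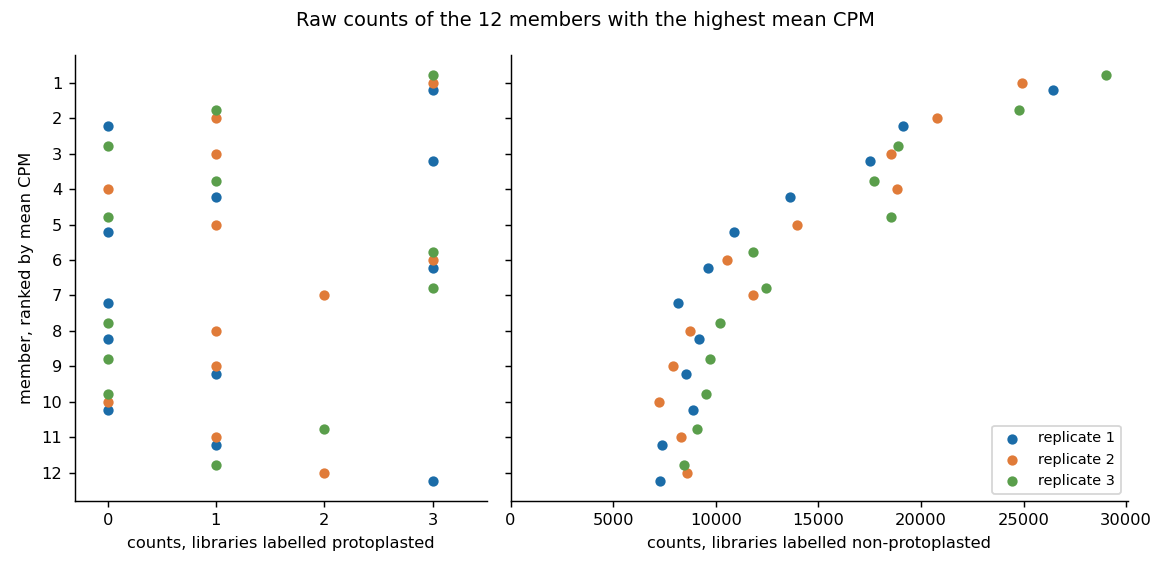
Raw counts of the 12 members with the highest mean CPM, ranked on the vertical axis, in the 3 libraries labelled protoplasted (left) and the 3 labelled non-protoplasted (right). Each point is a library, coloured by replicate, and each member has at least 7243 counts on the right and 0 to 3 on the left.

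The plot of the raw counts of the top 12 members shows the same shape for each. A single one of the 12, the member of rank 10, was without counts in all 3 libraries labelled protoplasted. The other 11 had 1 to 9 counts summed over these 3 libraries. Raw counts in non-protoplasted replicate 1 were often the lowest of the group in this plot, and it is the smallest library. On the CPM scale replicate 1 was usually the highest, as described further on.

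Of the 197 members, 72 were at 0 counts throughout the 3 libraries labelled protoplasted. A further 36 had a single count over the 3 libraries, 29 had 2 and 21 had 3, while 13 had 4, 10 had 5, 10 had 6, 4 had 7 and 2 had 9. In the single libraries, 117, 132 and 120 members had 0 counts in protoplasted replicates 1, 2 and 3. For the 72 members at 0, set against 3 counts per library, the level in the libraries labelled protoplasted was at least 117-fold to at least 4191-fold lower, with a median bound of 303-fold, each from the mean CPM of the groups. These are lower bounds set by depth and by each gene's level. For the 125 members with at least 1 count the pooled count ratio ran from 123 to 61548 with a median of 1687. The fitted log2 fold changes ran from -16.39 to -6.87, and those of members at 0 depend on the prior count of the fit.

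Across the 197 members, the Spearman correlation of mean CPM with the summed counts of the libraries labelled protoplasted was 0.0814, a description over genes that share the same 6 libraries. The 45 members at 10 to 20 CPM held 98 counts together in the libraries labelled protoplasted, and the 8 members at 500 CPM or more held 33. Relative to the counts in the libraries labelled non-protoplasted, this came to 2500 counts for each 1000000 in the lowest class and 85.5 in the highest. The classes between lay in order, at 725, 430, 187 and 178. Since the rule allows at most 3 counts in each library at any level, this share has to be small in the highest class. The share of members at 0 counts was 35.6% in the lowest class, 48.7% at 20 to 50 CPM and 17.6% at 200 to 500 CPM, and 0 of the 8 members at 500 CPM or more were without counts.

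**Figure D2:**
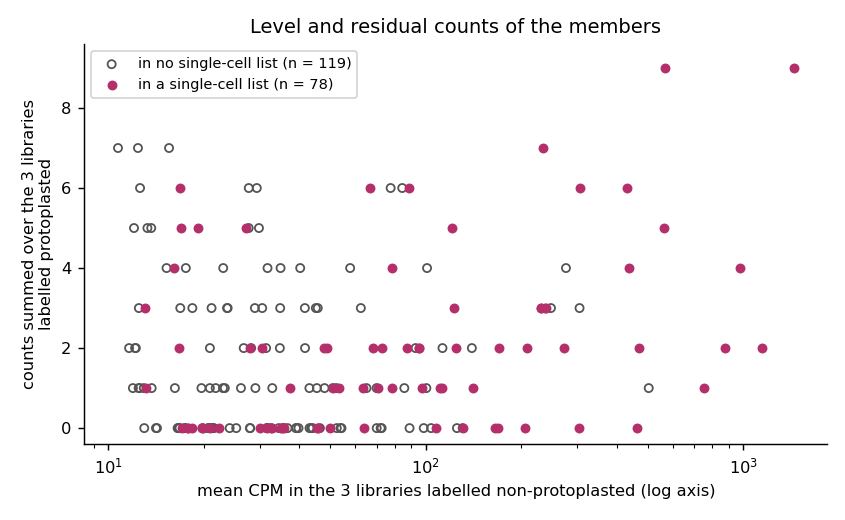
Mean CPM of each member in the 3 libraries labelled non-protoplasted (horizontal, log axis) against its counts summed over the 3 libraries labelled protoplasted (vertical). Each point is 1 of the 197 members, filled for the 78 members in a single-cell marker list and open for the 119 in none, and the filled points make up most of those above 200 CPM.

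In the plot of level against leftover counts, the mean was 1.33 to 2.18 summed counts per member in the classes under 200 CPM, 3.0 at 200 to 500 CPM and 4.12 at 500 CPM or more. Of its 4 members with 7 counts, 3 lie below 20 CPM, and its 2 members with 9 counts both lie at 500 CPM or more. Per length, the median level in the libraries labelled non-protoplasted was 62.7 TPM for the members at 0 counts and 63.5 TPM for those with at least 1.

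The members were short genes. Their length in the deposited table ran from 155 to 7936 bases with a median of 1616 and quartiles of 1082 and 2342. The median of all genes tested was 3170 bases, and that of the other genes at 10 CPM or more was 4118. Of the members, 39 (19.8%) were under 1000 bases, against 10.8% of all genes tested and 3.05% of the other genes at 10 CPM or more. A further 92 (46.7%) had 1000 to under 2000 bases, 56 (28.4%) had 2000 to under 4000 and 10 (5.08%) had 4000 or more, where 52.2% of the other genes at 10 CPM or more were found.

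Genes with a milder fall lay between these. A set of 1492 other genes at 10 CPM or more was called lower with a log2 fold change below -3. Without the limit of 10 CPM and with the members kept, 2977 of the 23677 genes tested (12.6%) were called so. The median length of the 1492 genes was 2713 bases with 8.05% under 1000 bases. The rule does not use length, but its limits are in counts and CPM, which were not divided by length. A longer transcript gathers more reads at the same number of transcripts. Whether the deposited length includes introns was not examined here, and the TPM values were scaled with that same length. Members at 0 counts in all libraries labelled protoplasted were the shorter ones, with a median of 1363 bases against 1683 for those with at least 1 count. Across the 197 members the Spearman correlation of length with the summed counts of the libraries labelled protoplasted was 0.195, and that of length with mean CPM was -0.140.

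**Figure D3:**
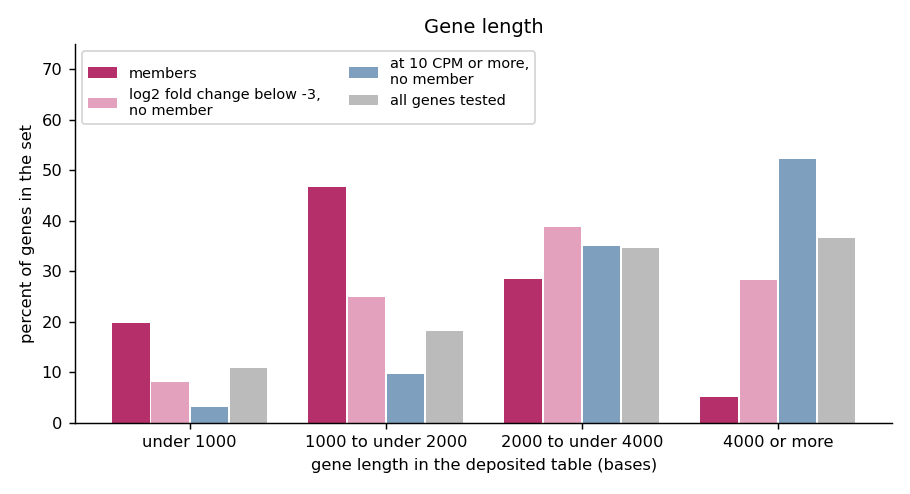
Percent of genes (vertical) in 4 classes of gene length in bases (horizontal) for the 197 members, for other genes at 10 CPM or more with a log2 fold change below -3, for the other genes at 10 CPM or more, and for all genes tested. The members peak at 1000 to under 2000 bases (46.7%) and the other genes at 10 CPM or more at 4000 or more (52.2%).

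The members were spread over all 5 chromosomes named in the IDs. Chromosome 1 held 48 (24.4%), chromosome 2 held 54 (27.4%) and chromosome 3 held 53 (26.9%), while 26 (13.2%) lay on chromosome 4 and 16 (8.12%) on chromosome 5. The same shares for all genes tested were 29.1%, 22.5%, 22.7%, 16.2% and 9.49%. The chromosome and the order along it were read from the IDs, since no coordinates were used here.

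Some members followed each other in ID order. Of the 197, 22 (11.2%) had another member as the next or previous ID, in 10 runs, of which 8 held 2 genes and 2 held 3 genes. Of the 389 rows next to a member, 22 were themselves members (5.66%), against 0.538% of all rows of the table. Within 5 rows, 43 members (21.8%) had another member. Of all 36647 rows, 11660 reached 10 CPM in each library labelled non-protoplasted, and the others could not be members. The share over all rows is thus not a matched background, and none is given for the share within 5 rows. The 22 members of runs had a median level of 134 TPM, against 62.5 TPM for the 175 others, and 10 of them (45.5%) were without counts in the libraries labelled protoplasted, against 35.4% of the others. Reads shared between near-identical neighbours could have been lost or split in the counting, and the counting mode and the use of strand are not given in the sources used here. The levels of neighbours are uncertain to that extent.

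The run with the highest level was formed by BdiBd21-3.3G0124000, BdiBd21-3.3G0124100 and BdiBd21-3.3G0124200 on chromosome 3, with lengths of 801, 890 and 1008 bases. BdiBd21-3.3G0124000 had 8563, 7900 and 9737 counts in non-protoplasted replicates 1, 2 and 3 and 1, 1 and 0 counts in the libraries labelled protoplasted. Its level was 1401 ± 261 TPM (SD, n = 3), and the pooled count ratio was 18575 with an interval from 5142 to 153391. All 3 genes of the run were among the top 100 genes by mean TPM.

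BdiBd21-3.3G0124100 had 8879, 7243 and 9526 counts in the libraries labelled non-protoplasted and 0 in each of the others. It was at 464 ± 136 CPM (SD, n = 3) and its level in the libraries labelled protoplasted was at least 4191-fold lower against 3 counts per library. Per length it stood at 1241 ± 305 TPM (SD, n = 3), the highest of the 72 members without any count. It was below its neighbour BdiBd21-3.3G0124000 in each library labelled non-protoplasted, at 1541, 932 and 1251 TPM against 1652, 1130 and 1420 TPM. The SD of either gene is a spread between libraries and does not measure this difference within them. BdiBd21-3.3G0124200, described above, was higher than both of them in TPM in every library labelled non-protoplasted.

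The other run of 3 genes, BdiBd21-3.3G0195800, BdiBd21-3.3G0195900 and BdiBd21-3.3G0196000, also lay on chromosome 3, with lengths of 2129, 1885 and 1902 bases. The first gene had 1057, 810 and 1128 counts in the libraries labelled non-protoplasted and 0 in each of the others, so that it was at least 491-fold lower there. The middle gene, BdiBd21-3.3G0195900, had 5888, 4912 and 6072 counts against 0, 3 and 0, a pooled count ratio of 7975 with an interval from 2728 to 38674. Its 3 counts all came from protoplasted replicate 2. BdiBd21-3.3G0196000 had 2161, 1628 and 1888 counts against 0 in each library, at least 940-fold lower. Within the run, the middle gene was the highest with 386 ± 92.4 TPM (SD, n = 3), and the first gene was the lowest with 60.7 ± 16.6 TPM (SD, n = 3).

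The 16 members of the runs of 2 genes had mean levels of 11.6 to 1145 CPM and lengths of 687 to 3020 bases. In 1 run both genes had the same length, BdiBd21-3.1G0158800 and BdiBd21-3.1G0158900 with 1020 bases each, a pair chosen here after its values were seen. The first had 2805, 1658 and 2630 counts in the libraries labelled non-protoplasted and the second had 3198, 2466 and 3472, and both had 0 counts in each of the others. Both were lowest in replicate 2.

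Genes next to a member that were not members themselves also tended to be lower. Of 367 such genes, 250 were tested, of which 147 (58.8%) were called lower and 56 (22.4%) higher, against 38.3% and 38.7% of all genes tested. With a log2 fold change below -3, 88 were called (35.2%, against 12.6%). Their median log2 fold change was -1.11, and that of all genes tested was 0.04. Overlap of reads between adjacent genes was not tested.

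The study also lists genes that mark clusters of single cells. Its single cells were themselves released with the same enzymes, from leaf developmental zones and from shoot apices with leaf primordia. Some of the leaf zone cells came from the *sid* mutant. The bulk libraries are of wild-type leaf zones only, so that tissue and genotype differ in part. Of these lists, the text at hand holds the mesophyll cluster (1999 rows), the silica cell lineage of the epidermis (1999 rows), the stage 0-2 cells (733 rows) and the cells in G2/M phase (316 rows). Only the last is known to be whole, and the others give lower limits. Mesophyll is the photosynthetic tissue inside the leaf, silica cells are epidermal cells of grasses filled with silica, stage 0-2 cells are the youngest cells of the epidermis, before stomata form, and G2/M is the phase of the cell cycle before and during division. Each list but that of G2/M holds rows with positive and with negative fold changes in its cells.

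In all, 78 of the 197 members (39.6%) were in at least 1 list. The share was 16.5% of all genes tested, 29.5% of the other genes at 10 CPM or more and 44.1% of the 1492 other genes with a log2 fold change below -3. The members' share thus lay above that of expressed genes in general and near that of other strongly lowered genes. The silica cell lineage listed 57 members (28.9%), which are 2.85% of that list, and 55 of them had a positive fold change there. The stage 0-2 list held 43 members (21.8%), 5.87% of the list, and all 43 had a positive fold change. The mesophyll list held 14 members (7.11%), 0.700% of the list, and 6 of these had a positive fold change. The list of G2/M phase held 0 members, where 1.32% of all genes tested were listed. In all, 76 members had a positive fold change in at least 1 list of these enzyme-released single cells. The same members had at most 3 counts in each bulk library labelled protoplasted. Whether the treatment entry that contradicts the titles has a part in this was not tested.

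Taking rows with a positive fold change, the silica cell lineage listed 27.9% of the members, 28.6% of the other genes with a log2 fold change below -3, 12.7% of the other genes at 10 CPM or more and 6.91% of all genes tested. For stage 0-2 the same shares were 21.8%, 15.3%, 5.41% and 3.00%. For the mesophyll they were 3.05%, 3.49%, 12.8% and 6.87%, so that members and other strongly lowered genes were less often among genes raised in mesophyll cells than expressed genes in general. The direction of the whole lists in the bulk libraries differed as well. Of the tested genes in the silica cell list 65.2% were called lower in the libraries labelled protoplasted, in the stage 0-2 list 68.6%, in the mesophyll list 25.5% and in the G2/M list 27.2%. The differences between these shares were not tested.

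**Figure D4:**
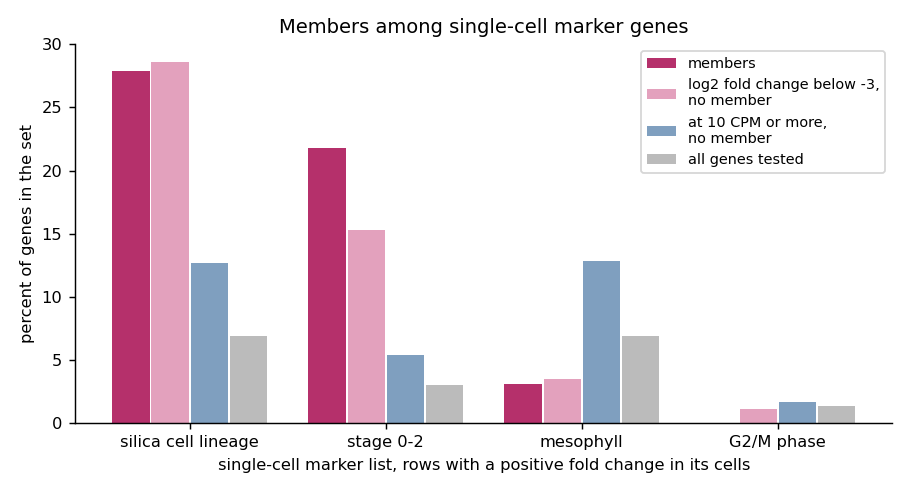
Percent of genes (vertical) with a positive fold change in each of 4 lists of single-cell marker genes (horizontal), for the 197 members, for other genes at 10 CPM or more with a log2 fold change below -3, for the other genes at 10 CPM or more, and for all genes tested. Members reach 27.9% in the silica cell lineage and 21.8% in stage 0-2, 3.05% in the mesophyll and 0 in G2/M phase.

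The lists overlapped among the members. Of the 78 listed members, 30 were in the silica cell list alone, 21 in the silica cell and stage 0-2 lists, 13 in the stage 0-2 list alone, 4 in the mesophyll list alone and 4 in the mesophyll and stage 0-2 lists. A single member was in the mesophyll and silica cell lists, and 5 were in all 3, among them BdiBd21-3.3G0414400. Of the run with the highest level, BdiBd21-3.3G0124000 was in the mesophyll and stage 0-2 lists, BdiBd21-3.3G0124100 in the stage 0-2 list, and BdiBd21-3.3G0124200 in the silica cell and stage 0-2 lists. The genes of the other run of 3 were in none of the lists.

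Listed members had higher levels per length. The median was 106 TPM for members in the silica cell list, 170 TPM in the stage 0-2 list and 236 TPM in the mesophyll list, against 46.5 TPM for the 119 members in none. The share listed was 28.9% of the members at 10 to 20 CPM, 23.7% at 20 to 50, 45.5% at 50 to 100, 61.1% at 100 to 200 and 82.4% at 200 to 500 CPM. At 500 CPM or more it was 7 of 8 members. Among the top 12 members by CPM, 11 were listed, the exception being the member of rank 8. Members in none of the lists were longer, with a median of 1729 bases against 1371 for the listed ones. The part of the level in being listed was not tested. No shares of other genes in the same CPM classes are given, so that the rise cannot be read as particular to the members.

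The 16 members with a Bradi ID were a partial sample, since the text that pairs the IDs is cut. They had mean levels of 6.65 to 435 TPM with a median of 30.2, lengths of 263 to 6086 bases, and 3 of them were in a single-cell list. Of those named here after their values were seen, BdiBd21-3.1G0876400 (Bradi1g64987) was the highest. It had 5192, 5691 and 6435 counts in the libraries labelled non-protoplasted and 1, 3 and 2 counts in the others. The pooled count ratio was 4093 with an interval from 1880 to 11154, and the gene was in the silica cell and stage 0-2 lists. The shortest was BdiBd21-3.1G0476800 (Bradi1g35290) with 263 bases, which had 879, 688 and 791 counts against 0 in each of the others and was at least 389-fold lower there.

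The spread of the members between the libraries labelled non-protoplasted was wide, a description without a test. The median coefficient of variation of CPM over the 3 libraries was 17.3% for the members, with a range from 0.875% to 60.0%, and 7.97% for the other genes at 10 CPM or more. The variation had a direction. Replicate 1 had the highest CPM of the 3 for 150 members (76.1%), replicate 3 for 29 (14.7%) and replicate 2 for 18 (9.14%). Replicate 2 had the lowest CPM for 138 members (70.1%).

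Among the other genes at 10 CPM or more, replicate 1 was the highest for 42.1% and replicate 2 the lowest for 38.3%. The 1492 other genes with a log2 fold change below -3 shared the members' order, with replicate 1 the highest for 76.3% and replicate 2 the lowest for 63.3%. The CPM in replicate 1 was above that in replicate 2 for 167 of the 197 members (84.8%), with a median ratio of 1.34 and quartiles of 1.11 and 1.58. The median ratio was 1.20 for the other strongly lowered genes and 1.01 for the other genes at 10 CPM or more. The order held in each subset of members that was looked at. The median ratio was 1.37 for members in a single-cell list and 1.26 for those in none, 1.38 for members without counts in the libraries labelled protoplasted and 1.31 for those with at least 1 count, and 1.38 and 1.39 for members under 1000 bases and of 2000 bases or more.

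Per library, the median of the members was 40.2 CPM in replicate 1, 34.1 CPM in replicate 2 and 36.3 CPM in replicate 3. In the libraries labelled protoplasted the median was 0 CPM in each, near which the rule holds it. Replicate 1 is also the smallest library. The part of its depth in the order was not tested.

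**Figure D5:**
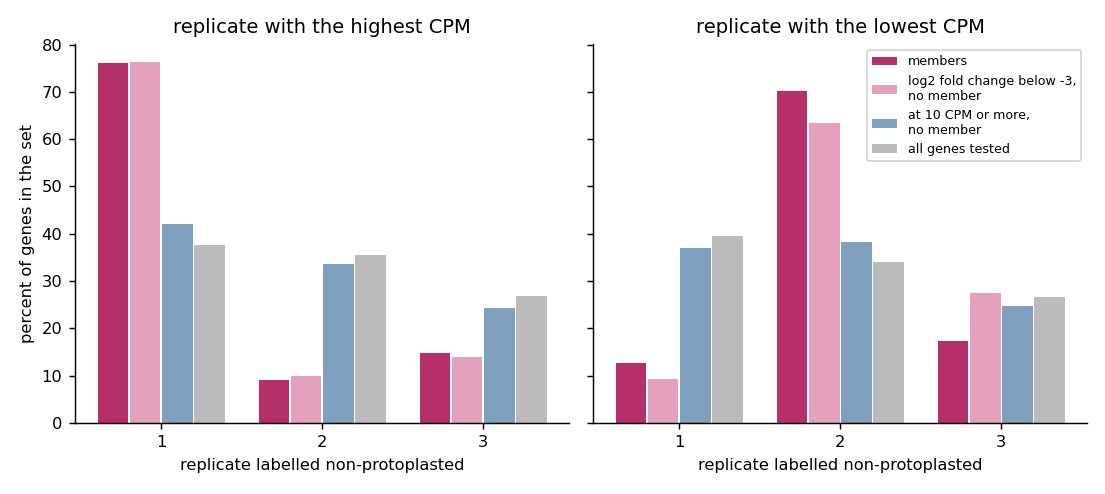
Percent of genes (vertical) for which each of the 3 libraries labelled non-protoplasted (horizontal, by replicate) had the highest CPM (left) and the lowest CPM (right), for the 197 members and 3 comparison sets. Replicate 1 was the highest for 76.1% of the members and 76.3% of the other genes with a log2 fold change below -3, and for 42.1% of the other genes at 10 CPM or more.

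The members shade into genes just outside the limits. Among genes at 10 CPM or more in each library labelled non-protoplasted, the highest count in any library labelled protoplasted was 2 for 31 members and 3 for 37, and it was 4 for 32 genes and 5 for 29 genes outside. Among genes with at most 3 counts, the lowest CPM in any library labelled non-protoplasted was between 10 and 11 for 8 members and between 9 and 10 for 16 genes outside. Just inside, BdiBd21-3.3G0470300 had 10.7, 10.1 and 14.0 CPM in non-protoplasted replicates 1, 2 and 3. Just outside, BdiBd21-3.4G0290200 had 9.82, 10.6 and 14.8 CPM. There is no gap in the values at either limit.

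The mirrored rule, with the groups exchanged and the same named genes left out, found 5 genes. They had mean levels of 13.5 to 40.2 CPM in the libraries labelled protoplasted, lengths of 405 to 3335 bases, and 0 of them were in a single-cell list. The sets were thus unequal in size, 197 against 5. With TMM scaling, similar numbers of all genes were called lower (9074) and higher (9164). This balance depends on the scaling, as library size only gave 7294 lower and 11510 higher.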

How the data were processed

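Per the study's methods, the authors ran FastQC, aligned with bowtie2 against the Bd21-3 v1.1 genome and used summarizeOverlaps for counting. They deposited these raw counts without normalization, together with a signal in reads per kilobase (the count divided by gene length) and with TPM values scaled from it. The library kit was directional, and the counting mode and use of strand are not given in the sources used here. Bowtie2 does not split reads across introns. Columns of single libraries left unused numbered 0.

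Titles and library names gave the groups. The test used edgeR 4.0.16 in R 4.3.3 (filterByExpr by group with a minimum count of 10, TMM, glmQLFit and glmQLFTest, Benjamini-Hochberg adjustment over the 23677 genes tested, threshold 0.05). Libraries held 17482438 to 24621927 counts. A fold against a group at 0 counts was computed against 3 counts in each library. Pooled count ratios (summed counts over summed TMM-scaled library sizes) were used with 1 or more counts and have exact 95% binomial intervals. The fit was also run on simulated data in which few genes were changed, with as many raised as lowered. A far larger share of genes was called in the libraries here, so that the simulation cannot decide how well the scaling holds for them. Alternatives were DESeq2 1.42.0, limma 3.58.1 on log2(TPM + 1), other scalings, other filters and limits, a replicate block, and each library left out. Replicates of 1 group differed beyond sampling noise (chi-square per degree of freedom 6.50 to 43.3), so that none was counted as a duplicate.

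The members and lists were chosen with earlier results of these data known. Named were the 2 members with the highest mean CPM, the members of the longest runs of neighbouring IDs and genes next to the limits. The rule also provided for members with an annotated product, of which there were 0, and promoter motifs were not searched. Marker lists were used as gene names and sign of the fold change, and 3 of the 4 were cut. A further list of the study, with its own fold changes between the groups, was used for its paired IDs only. Its fold changes did not match the deposited counts of the members, and the reason was not tested.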

Additional observations from a re-analysis of the deposited data

How the results depend on the processing

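Of 64 recomputed values for 8 results, 57 stayed within 1.5 times the count, or within the spread, of the reported value and 7 did not. The values of the members called lower, 197 in each fit, follow from the rule and support nothing. For gene length the spread was the SD over the members, 1182 bases, which is a wide limit. The number of members depends on its limits. It was 72 with 0 counts allowed, 356 with at most 10 counts, 307 with at least 5 CPM and 298 with at least 10 TPM. Members with another member nearby numbered 43 within 5 rows instead of 22 in adjacent rows. The median level of the members was 31.4 CPM with scaling by library size only, and 34.7 to 38.9 CPM with each library left out in turn, the latter without non-protoplasted replicate 3. Leaving out each library gave 205 to 232 members. Scaling by library size only moved the calls over all genes to 7294 lower and 11510 higher, against 9074 and 9164. Samples of equal replicate number were weakly correlated (correlations of deviations 0.121, 0.0379 and 0.0832 for numbers 1 to 3). For numbers 1 and 3 the sample of equal number was the best match. Protoplasted replicate 2 correlated slightly better with non-protoplasted replicate 3 (0.0457). The main fit treated the samples as unpaired. A fit with the replicate block called 9098 genes lower, 9140 higher and all 197 members lower. A filter of 10 counts in every library left 0 members, which the limit of 3 counts in the libraries labelled protoplasted fixed in advance. At 3 counts or fewer, depth limits each fold change, and the absence of a transcript from the libraries labelled protoplasted cannot be told from a level under 0.106 to 0.115 CPM.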
